A study of Oryza sativa with 12 samples.

Results

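The genes described here are the proteins of the cytosolic ribosome in rice (Oryza sativa) roots, as assembled transcripts whose best protein hit was a rice species. Of 182689 unigenes (clusters of assembled transcripts) in the deposited table, 68051 had a hit to an Oryza protein in the NR database. Of these, 409 were described there or in Swissprot as a 40S, a 60S or a 60S acidic ribosomal protein, and they are called members below. The NR description held these words in 290 members and the Swissprot description in 400, with 119 found through Swissprot alone and 9 through NR alone. The roots, all of wild-type background, were treated for 72 hours with 0.1 mM spermidine and 100 mM NaCl together, with 100 mM NaCl, or with 0.1 mM spermidine, or were left untreated, with 3 poly-A RNA libraries in each of the 4 groups. No time is labelled for the untreated roots. The labels do not tell separate cultures from repeated libraries, so the p-values below cover only the spread among libraries, which may be technical.

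The cytosolic ribosome joins a small (40S) and a large (60S) subunit, each made of ribosomal RNA and many proteins that occur once per particle. Plants encode nearly every ribosomal protein in several gene copies, and growing root tips are among the tissues that make many ribosomes. The acidic proteins P0, P1, P2 and P3 form the flexible stalk of the large subunit, which recruits elongation factors, and P3 is found only in plants. Spermidine is a polyamine, carries positive charge, binds RNA and ribosomes and serves as the source of the hypusine residue of the translation factor eIF5A.

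Libraries were close in depth, with relative depths of 0.92 to 1.09 read from low values, and the deposited FPKM summed to between 1312574 and 1371599. FPKM divides a transcript's fragments by its length and by the depth of the library, so levels can be compared between genes of unequal length, while the read counts are unknown. Within a group, members correlated at 0.962 to 0.984 between spermidine+NaCl libraries, at 0.994 to 0.995 between NaCl libraries, at 0.973 to 0.978 between spermidine libraries and at 0.971 to 0.978 between untreated libraries. The 41 root marker unigenes, among them the silicon transporter NIP2-1 and cortical cell-delineating proteins, summed to 7871 to 8854 FPKM in spermidine+NaCl, 6892 to 7193 in NaCl, 8323 to 9131 in spermidine and 8496 to 9222 in untreated roots. The 42 shoot marker unigenes summed to 62.5 to 81.0, 70.0 to 319, 58.3 to 186 and 68.2 to 73.4 FPKM in those 4 groups, in that order. The 319 was NaCl replicate 3 alone, with 93.8 and 70.0 in replicates 1 and 2. The 186 was spermidine replicate 1 alone, with 61.5 and 58.3 in replicates 2 and 3. The sum of the root list was thus lower in NaCl roots than in every other group, but its unigenes went both ways. Of 37 tested in NaCl against untreated roots, limma called 6 higher and 10 lower (adjusted p below 0.05), beside 10% and 12.9% of all tested unigenes. Their median log2 change was 0.01, with 19 above 0. A NIP2-1 unigene (Cluster-52034.76384) averaged 1114 FPKM in NaCl and 2133 in untreated roots. A cortical cell-delineating unigene (Cluster-52034.67926) averaged 272 and 139. The part of these markers in the results below was not tested. In whole roots, fewer cells of a type and less RNA per cell cannot be told apart. RNA of other organisms was also present, since 4686 unigenes with ribosomal protein words but no rice hit summed to 20423 to 31245 FPKM in spermidine+NaCl, 16192 to 19188 in NaCl, 24030 to 30447 in spermidine and 21772 to 34065 in untreated roots.

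Members spanned a wide range of levels, with 161 of the 409 averaging 100 FPKM or more over the 12 libraries and 219 averaging 10 or more. An average of 1 FPKM, the limit for testing, was reached by 320 members. Of the 89 below it, 29 reached 1 FPKM in the mean of some group. The 320 were 121 unigenes of 40S proteins, 174 of 60S proteins, 8 of the stalk, 10 described as L18a-like proteins (which share part of the L18a name but are not known as ribosomal subunits), 3 with a mitochondrial description and 4 whose NR hit names another protein. Among these last, Cluster-52034.77466 (P1 in Swissprot) carries the NR name of an ACC oxidase homolog and Cluster-52034.72674 (S6 in Swissprot) that of the kinase SAPK2. Names holding the word ribosomal were not set apart. Cluster-52034.66060, described as ribosomal L1 domain-containing protein 1, was therefore counted among the 60S proteins, in family L10a. Tested or not, the 387 members outside the last 3 classes matched 77 protein families with 1 to 15 unigenes each, L7 and L10 having the most (15 and 13). Reads of near-identical copies can be split between unigenes, so single copies are less certain than their family's sum.

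The summed FPKM of the members was highest in roots given both treatments. It was 59903, 57026 and 55836 FPKM in the spermidine+NaCl libraries, 46027, 48913 and 47986 in NaCl, 42691, 49971 and 43560 in spermidine, and 50848, 47195 and 55332 in untreated roots. All 3 spermidine+NaCl libraries lay above all other libraries, while the NaCl, spermidine and untreated libraries overlapped. Members took 4.24 to 4.45% of all FPKM in spermidine+NaCl, 3.36 to 3.66% in NaCl, 3.12 to 3.71% in spermidine and 3.60 to 4.18% in untreated roots. Taken as a share of the FPKM of rice hits alone, which leaves out most RNA of other organisms, these were 5.38 to 5.63%, 4.12 to 4.56%, 4.24 to 4.80% and 4.63 to 5.35%, and the spermidine+NaCl libraries again stood above the rest. The proportion of the subunits hardly moved, with a ratio of 40S to 60S FPKM of 0.585 to 0.604 over all 12 libraries.

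**Figure D1:**
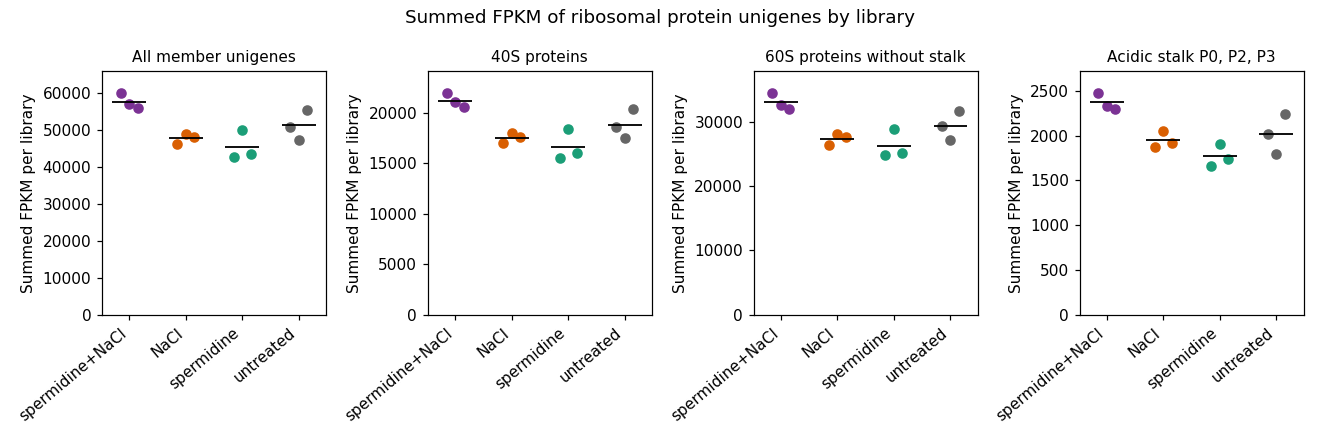
Summed FPKM of member unigenes in each library (y axis, from 0) by group (x axis), for all 409 members, 40S proteins, 60S proteins without the stalk, and P0, P2 and P3; points are libraries and lines group means. In each panel the 3 spermidine+NaCl libraries lie above every library of the other 3 groups.

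Ribosomal protein transcripts were higher in salt-treated roots given spermidine. In spermidine+NaCl against NaCl roots, 71 of the 320 tested members were called higher and 2 lower by limma (adjusted p below 0.05 over all 65836 tested unigenes), while 8.63% of all tested unigenes were called higher and 7.18% lower. The median log2 change of the members was 0.29 and 294 of 320 were above 0, against a median of 0.14 over all tested unigenes, of which 61.4% were above 0. Both subunits took part, with 26 of 121 unigenes of 40S proteins (median 0.28) and 43 of 174 of 60S proteins (median 0.29) higher and none of either lower. Of the 161 members averaging 100 FPKM or more, 46 were higher and 0 lower, with a median of 0.27 and 160 above 0. Of the other rice hits as abundant, 72.0% were above 0. Among all rice hits as abundant, 24.1% were called higher and 13.6% lower, so the share of abundant members called higher was near that of other abundant rice genes, and the members differed in having no called fall. In 138 of these 161 members all spermidine+NaCl libraries lay above all NaCl libraries, and the reverse held for 0, where 45.6% of the other abundant rice hits were separated upward and 18.1% downward.

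The number called depended on the scaling between libraries and on single libraries. Scaling by the median ratio of rice hits moved the median of all unigenes to 0.00 and that of the members to 0.12, with 9 members called higher, and rescaling to rice hits alone moved them to 0.22 and 0.36, with 173 called higher. The share of all unigenes called under these scalings is not given, so these 2 counts have no background. The members' median less that of all unigenes was 0.15 in the deposited scaling and ran from 0.10 to 0.31 over 20 alternatives. Without NaCl replicate 1 the count of members called higher was 10, without NaCl replicate 3 it was 16, and without spermidine+NaCl replicates 1, 2 or 3 it was 37, 17 and 27.

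**Figure D2:**
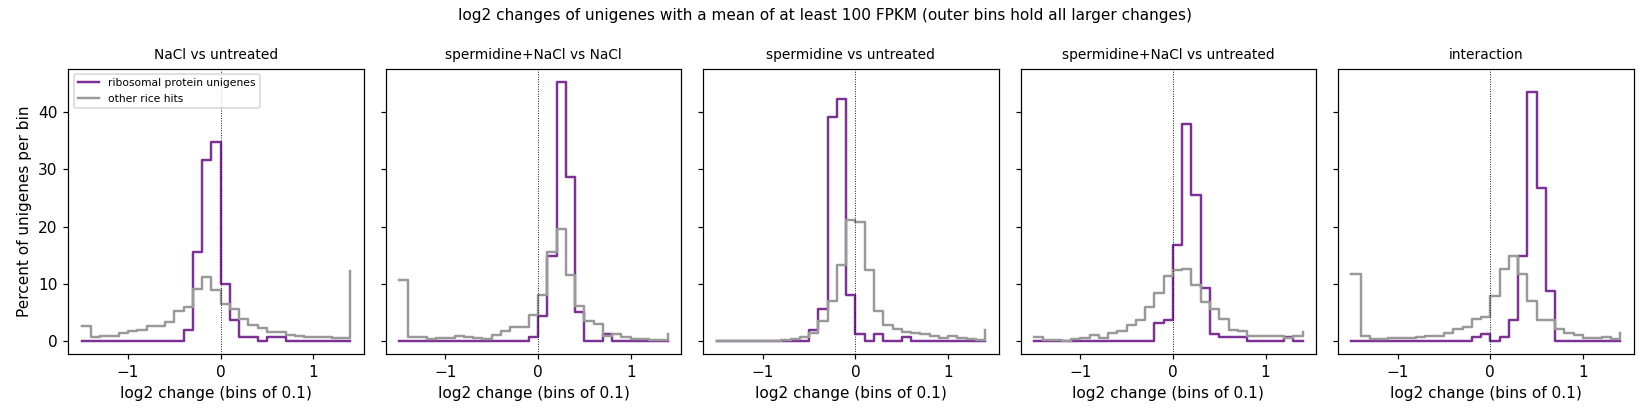
Share of unigenes (y axis, percent) by log2 change of FPKM + 1 in bins of 0.1 (x axis) in 5 comparisons, for 161 ribosomal protein unigenes and 1524 other rice hits that average 100 FPKM or more. The ribosomal protein unigenes form a narrow peak in each comparison, with medians of 0.27 in spermidine+NaCl against NaCl and 0.47 in the interaction, against 0.19 and 0.19 for the other rice hits.

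The 6 most abundant members were unigenes of L35, L15, S7, L32, P3 and L19. L35, a protein near the exit of the large subunit's peptide tunnel, was the only member above 1000 FPKM on average. Its main unigene (Cluster-52034.62989) stood at 1433, 1285 and 1330 FPKM in spermidine+NaCl, at 1312, 1192 and 1232 in NaCl, at 1404, 1371 and 1298 in spermidine and at 1569, 1383 and 1514 in untreated roots. It was lower in NaCl roots than in untreated roots, with no overlap (log2 change -0.26 ± 0.07 SE, adjusted p = 0.0245). The call was lost without NaCl replicates 2 or 3 or untreated replicates 1 or 3 (adjusted p 0.0704 to 0.0910) and in 5 of 8 alternative settings (of scaling, pseudocount, filter or model), and the change was 0.038 after quantile normalization. L32, a 60S protein (Cluster-52034.77066), had 924, 858 and 803 FPKM in spermidine+NaCl, 646, 720 and 678 in NaCl, 555, 690 and 655 in spermidine, and 736, 656 and 714 in untreated roots. The spermidine+NaCl libraries lay above all 9 others, and the difference from NaCl was 0.34 ± 0.09 SE (adjusted p = 0.0331). It was lost without spermidine+NaCl replicates 1 or 2 or NaCl replicates 1 or 3 (adjusted p 0.0874 to 0.118) and in 3 settings (up to 0.283 under median-ratio scaling).

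L19, a 60S protein at the contact between the subunits (Cluster-52034.67512), had 781, 787 and 763 FPKM in spermidine+NaCl, 637, 645 and 670 in NaCl, 561, 661 and 577 in spermidine, and 660, 654 and 773 in untreated roots. It was 0.26 ± 0.08 SE higher with spermidine under NaCl without passing the test (adjusted p = 0.0601), although those libraries did not overlap. The small subunit protein S7 (Cluster-52034.77946) had 1077, 1024 and 948 FPKM in spermidine+NaCl, 892, 847 and 892 in NaCl, 635, 870 and 697 in spermidine, and 822, 834 and 854 in untreated roots. Its spermidine+NaCl libraries also lay above all others, with a difference from NaCl of 0.21 ± 0.10 SE (adjusted p = 0.200). L15 of the large subunit (Cluster-52034.65306) varied more between libraries, from 712 to 1129 FPKM within the NaCl group, and passed the test in no comparison.

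Of the 8 tested stalk unigenes, 1 was called higher and 1 lower in spermidine+NaCl than in NaCl roots, with a median change of 0.27 and 6 above 0. P3, the plant-specific stalk protein (Cluster-52034.75729), had 837, 807 and 819 FPKM in spermidine+NaCl, 614, 736 and 629 in NaCl, 589, 659 and 643 in spermidine, and 749, 615 and 749 in untreated roots. All 3 spermidine+NaCl libraries were above the other 9, and the difference from NaCl was 0.32 ± 0.10 SE (adjusted p = 0.0471). That call was lost in 5 of the 8 alternative settings and, at 0.053 or above, in 10 of 12 fits that each left out 1 library (highest, 0.162, without NaCl replicate 1). P0, the base of the stalk (Cluster-52034.71064), had 423, 441 and 429 FPKM in spermidine+NaCl, 332, 376 and 344 in NaCl, 261, 322 and 298 in spermidine, and 317, 311 and 365 in untreated roots. Roots with both treatments had 0.38 ± 0.09 SE more than untreated roots (adjusted p = 0.0393, lost in 4 settings and in 8 of 12 fits with 1 library left out, up to 0.136 without untreated replicate 1), and 0.30 ± 0.09 SE more than NaCl roots (adjusted p = 0.0508). The main P2 unigene (Cluster-52034.73479) had 596, 543 and 509 FPKM in spermidine+NaCl, 451, 454 and 460 in NaCl, 370, 460 and 368 in spermidine, and 468, 402 and 551 in untreated roots, and did not pass the test against NaCl (0.27 ± 0.12 SE, adjusted p = 0.174). The other P2 and P0 unigenes averaging 20 FPKM or more (Cluster-52034.77471, Cluster-52034.68664 and Cluster-52034.71068) changed by 0.19 to 0.27 with spermidine under NaCl, none past the test. The unigene called lower was a minor P2 copy (Cluster-51965.0), listed at 0 in all spermidine+NaCl libraries, with 5.18, 2.31 and 5.67 FPKM in NaCl, 1.43, 0 and 0 in spermidine, and at 0 in all untreated roots. It reached the limit for testing only through the NaCl group, where it is high, so its call carries no weight. With salt alone the stalk had a median change of 0.06, with 5 of 8 above 0 and that copy the 1 called, against a median of -0.13 for all members, and whether the stalk differs from the other members was not tested.

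S6, whose phosphorylation by S6 kinase is a readout of the growth regulator TOR, has 1 clearly named unigene of high level (Cluster-52034.72668). It had 211, 200 and 192 FPKM in spermidine+NaCl, 161, 173 and 162 in NaCl, 152, 174 and 166 in spermidine, and 173, 164 and 197 in untreated roots. The spermidine+NaCl libraries stood above all NaCl and spermidine libraries but overlapped the untreated ones, and the difference from NaCl was 0.28 ± 0.08 SE (adjusted p = 0.0467, lost in 8 of 12 fits with 1 library left out, up to 0.140 without NaCl replicate 1, and in 4 settings, up to 0.464 under median-ratio scaling).

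S27a and L40 are made as fusions to ubiquitin, and ubiquitin sequence is shared with other genes. The S27a unigene (Cluster-52034.75406) had 323, 325 and 314 FPKM in spermidine+NaCl, 242, 270 and 263 in NaCl, 243, 294 and 251 in spermidine, and 312, 276 and 322 in untreated roots. It was higher in spermidine+NaCl than in NaCl roots without overlap (0.31 ± 0.09 SE, adjusted p = 0.0375, lost in 3 settings and in 7 of 12 fits with 1 library left out, up to 0.135 without NaCl replicate 1), to a level that overlapped that of untreated roots. L40 was the only family of the 77 with a change above 0 in spermidine against untreated roots. Its 7 unigenes summed to 149, 164 and 126 FPKM in spermidine+NaCl, 102, 113 and 116 in NaCl, 134, 139 and 167 in spermidine, and 96.3, 92.3 and 92.5 in untreated roots. All treated libraries lay above the untreated ones. L40 rose with spermidine alone (0.64 ± 0.11 SE, adjusted p = 0.0106) and with both treatments (0.63 ± 0.11 SE, adjusted p = 0.0112) against untreated roots. It was the only family of 77 called with spermidine alone, where 2.56% of all features in that fit were called, and 1 of 3, with P0 and S3a, called with both treatments, where 5.38% were. One unigene, Cluster-52034.75959, made up 91.5% of the family, and its Swissprot hit is the L40 of a green alga, although its NR hit is a rice locus. Tested alone, this unigene was called higher with both treatments than in untreated roots (adjusted p = 0.0447), and lost the call in 4 settings and in 10 of 12 fits with 1 library left out, up to 0.148 without spermidine+NaCl replicate 2. With spermidine alone this unigene, like every member averaging 100 FPKM or more, was not called. No fits with a library left out are given for the family's own calls.

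Summing the unigenes of each protein name gave a view that does not depend on how reads were split between copies of that name. Family means ran from 1.87 to 1760 FPKM with a median of 633, and 73 of the 77 families had at least 100 FPKM. The top unigene held a median of 61.6% of its family's FPKM. In spermidine+NaCl against NaCl roots all 77 families had a change above 0 and 33 passed the test, all higher, against 15.8% of all features called in either direction in that fit. The median change was 0.29, from 0.13 for L7a to 0.74 for L44, and in 72 families all spermidine+NaCl libraries lay above all NaCl libraries. Of the other abundant rice hits, taken as single unigenes, 72.0% had a change above 0 and 45.6% were separated upward in this way. The families with the largest called changes were L44, L38 and L18a, all of the large subunit. L44, an older name of the protein also called L36a, was low, at 2.40, 1.85 and 3.01 FPKM in spermidine+NaCl against 1.11, 1.23 and 0.78 in NaCl roots. The family named L36a was kept apart and summed to 52.9, 26.95 and 21.4 FPKM in spermidine+NaCl against 19.6, 16.6 and 19.8 in NaCl roots. L38 summed to 705, 651 and 696 FPKM in spermidine+NaCl against 473, 561 and 479 in NaCl roots (0.44 ± 0.09 SE, adjusted p = 0.00753). L18a summed to 1629, 1567 and 1567 FPKM in spermidine+NaCl against 1073, 1280 and 1192 in NaCl roots (0.43 ± 0.08 SE, adjusted p = 0.00488), and neither family's groups overlapped. The count of 33 was 5 to 11 without NaCl replicates 1 or 3 or any single spermidine+NaCl replicate, 18 without untreated replicate 1, 3 under median-ratio scaling and 67 with rice hits alone.

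**Figure D3:**
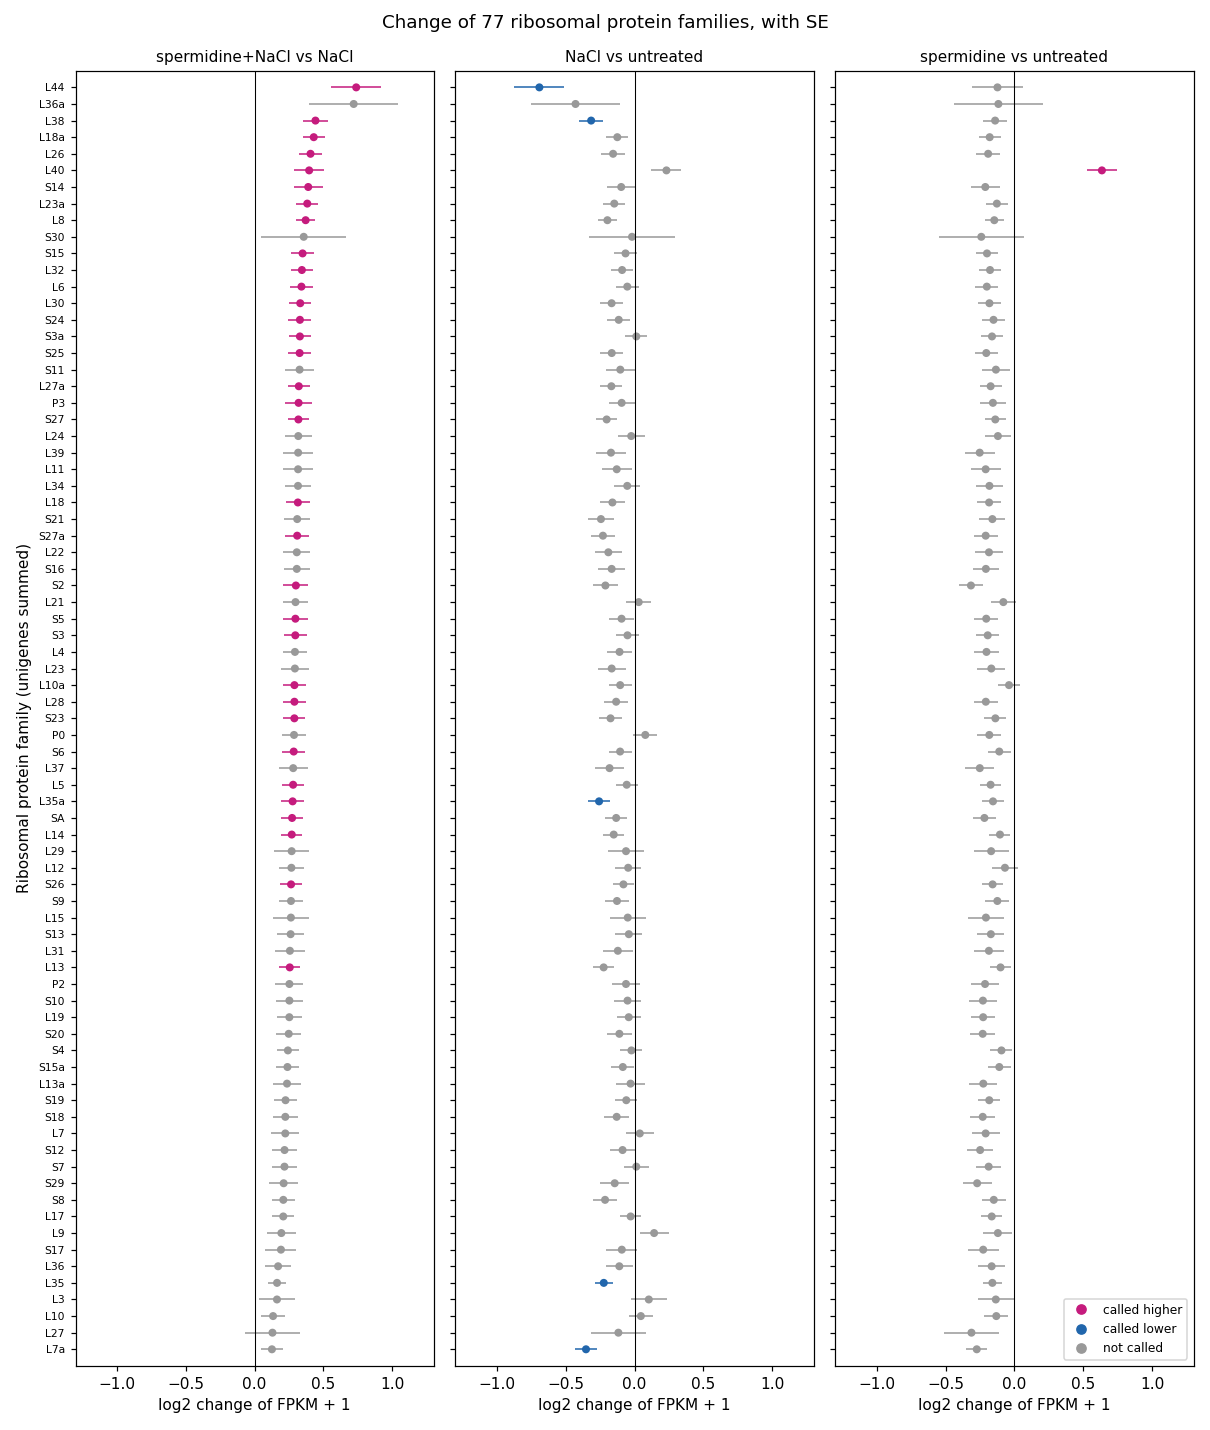
log2 change of summed FPKM + 1 (x axis) with its SE for 77 ribosomal protein families (y axis, ordered by the first panel) in spermidine+NaCl against NaCl, NaCl against untreated, and spermidine against untreated roots; magenta and blue points are families called higher and lower. All 77 families are above 0 in the first panel, 9 in the second and 1, L40, in the third.

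With salt alone the members' median change was that of all unigenes in the deposited scaling. In NaCl against untreated roots, 8 of 320 members were called higher and 23 lower, where 10% of all tested unigenes were called higher and 12.9% lower, so both shares were below the background in that scaling. Both medians were -0.13, and 63 of 320 members were above 0, against 35.1% of all tested unigenes. The 8 called higher include minor copies of S27, L34, L7 and P2, tested only through salt-treated groups, where they are high. The calls of these copies carry no weight. The members' median less that of all unigenes ran from -0.21 (quantile normalization) to 0.04 over 20 alternatives. Of the 161 abundant members 1 was higher and 7 lower, where 20.1% and 25.9% of equally abundant rice hits were. In 2 of them all NaCl libraries lay above all untreated libraries and in 26 below, against 25.9% and 37.7% of the other abundant rice hits. This comparison shares its NaCl libraries with that of spermidine+NaCl against NaCl roots, so the changes in both are not independent. Without NaCl replicates 1 or 3, spermidine+NaCl replicate 3, or untreated replicates 1 or 3, the count of members called lower was 7, 5, 15, 11 and 11, and the count called higher was 4 and 5 without NaCl replicates 1 and 2. Scaling moved the number called lower to 10 under the median ratio, 92 under quantile normalization and 77 with rice hits alone. The share of all unigenes called under these scalings is not given, so whether the members stayed below the background there cannot be said.

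Of the 77 families, 5 were lower in NaCl than in untreated roots and 0 higher, against 23% of all features called in either direction. They were L7a, L35, L35a, L38 and L44, all of the large subunit. L44 averaged 1.94 FPKM over the 12 libraries, while L36a, another name of that protein, averaged 25.6 and was not called. L7a summed to 38.4, 38.3 and 40.9 FPKM in NaCl against 52.7, 46.3 and 52.0 in untreated roots (-0.35 ± 0.08 SE, adjusted p = 0.00820), with no overlap. L38 summed to 473, 561 and 479 FPKM in NaCl against 655, 617 and 606 in untreated roots (-0.31 ± 0.09 SE, adjusted p = 0.0271), also without overlap. Left-out libraries took the count of families down to 1 (without NaCl replicate 3 or untreated replicate 1), 2 (without NaCl replicate 1) or 3 (without NaCl replicate 2 or untreated replicate 3), and up to 8 (without spermidine replicate 2).

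The larger falls with salt were in minor copies. A minor S5 unigene (Cluster-52034.71930), for a protein of the 40S head, had 12.8, 15.5 and 10.9 FPKM in NaCl against 23.3, 23.0 and 19.9 in untreated roots. This fall of 0.72 ± 0.17 SE (adjusted p = 0.0109) held in every fit that left out 1 library. S26, a protein at the exit of the mRNA channel (Cluster-52034.102614), had 2.62, 4.14 and 2.99 FPKM in NaCl against 8.14, 7.04 and 5.59 in untreated roots. It fell by 0.90 ± 0.21 SE (adjusted p = 0.00997), and no left-out library removed the call. An S13 copy (Cluster-52034.75338) had 3.90, 6.52 and 5.41 FPKM in NaCl against 7.64, 12.1 and 19.5 in untreated roots, where the values spread widely (-1.10 ± 0.31 SE, adjusted p = 0.0287). Its call was lost without NaCl replicates 1 or 3 (0.108 and 0.0674) or untreated replicates 2 or 3 (0.0685 and 0.0937), and in 3 settings. The only abundant member called higher was an L9 unigene (Cluster-52034.68745, a 60S protein), with 200, 208 and 219 FPKM in NaCl against 101, 155 and 165 in untreated roots (0.61 ± 0.18 SE, adjusted p = 0.0314). That call was lost without any of the 3 NaCl libraries or untreated replicate 1 (0.0668 to 0.0947) and in 3 settings.

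Minor copies of S9 and S7 had larger differences between the salt-treated groups than the abundant members named above. An S9 unigene (Cluster-52034.81361), for a 40S protein at the mRNA entry, had 9.67, 9.47 and 8.86 FPKM in spermidine+NaCl, 4.0, 5.68 and 3.70 in NaCl, 5.28, 7.43 and 6.84 in spermidine, and 7.06, 7.48 and 7.35 in untreated roots. It was lower in NaCl than in untreated roots (-0.62 ± 0.15 SE, adjusted p = 0.0137, lost at 0.0548 and 0.0563 without NaCl replicates 1 and 3). It was higher in spermidine+NaCl than in NaCl roots (0.94 ± 0.15 SE, adjusted p = 0.00226), and this call held in all 20 alternatives, left-out libraries included. A minor S7 unigene (Cluster-52034.72046) had 17.5, 22.0 and 18.2 FPKM in spermidine+NaCl, 10.9, 10.3 and 9.96 in NaCl, 14.9, 22.7 and 22.2 in spermidine, and 16.8, 14.2 and 11.7 in untreated roots. Its rise of 0.82 over NaCl roots (adjusted p = 0.00973) was also kept in all 20 alternatives. An L5 unigene (Cluster-52034.74185), for the 60S protein that binds 5S ribosomal RNA, had 9.03, 11.2 and 7.08 FPKM in spermidine+NaCl against 3.73, 6.14 and 5.18 in NaCl roots. That change of 0.75 (adjusted p = 0.0344) was lost without spermidine+NaCl replicates 1 or 2 or NaCl replicates 1 or 3 (0.0684 to 0.129) and in 4 settings.

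With spermidine alone few members were called, and none of the abundant ones. Against untreated roots, 4 of 320 members were called higher and 1 lower in spermidine roots, where 2.05% and 0.509% of all tested unigenes were, and 0.142% and 0.152% of tested rice hits. Each of the 4 was listed at 0 in at least 1 untreated library. They include the minor L10a and L13 copies described below, which were tested only through the spermidine group, where they are high. The count of 4 is therefore not read against these shares. Of the 161 abundant members 0 passed the limma test in either direction (0.356% of equally abundant rice hits were higher and 0.297% lower), with 40 at an unadjusted p below 0.05. Their median change was -0.19 with 5 of 161 above 0, while the other rice hits of that abundance had a median of 0.01 with 52.5% above 0. In 17 of the 161 all spermidine libraries lay below all untreated libraries and in 1 above, where 6.17% and 8.2% of the other abundant rice hits were so separated. Over the alternatives the members' median less that of all unigenes ran from -0.22 to -0.10. The single called fall was an L5 unigene (Cluster-52034.71767) with 11.7, 7.44 and 9.06 FPKM in spermidine against 17.9, 16.7 and 18.3 in untreated roots (-0.86, adjusted p = 0.0363). It was lost in 9 of the 12 fits with a library left out, up to 0.133 without spermidine replicate 3, and in 4 settings. The number of members called was 2 without spermidine replicate 3, 3 without NaCl replicate 2 or untreated replicate 3, and 8 without spermidine replicate 2.

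Against untreated roots, roots with both treatments had 10 of 320 members called higher and 0 lower, where 2.38% and 2.99% of all tested unigenes were. The 10 include the minor S27 copy (Cluster-52034.88998), tested only through the salt-treated groups, so its call carries no weight. Of the 10, 6 averaged 100 FPKM or more (6 of 161, with 0 lower, where 8.49% of all rice hits as abundant were higher and 6.29% lower). In 65 of the 161 abundant members all spermidine+NaCl libraries lay above all untreated libraries, and in 0 below, where 26.3% and 15.2% of the other abundant rice hits were. L24, a 60S protein involved in joining the subunits (Cluster-52034.64356), had 301, 288 and 300 FPKM in spermidine+NaCl, 205, 280 and 220 in NaCl, 178, 193 and 193 in spermidine, and 204, 185 and 233 in untreated roots. Its spermidine+NaCl libraries were above all others, and the difference from untreated roots was 0.52 (adjusted p = 0.0315, lost in 3 settings and in 5 of 12 fits with 1 library left out, up to 0.106 without untreated replicate 2). The count of 10 fell to 0 without untreated replicate 1 and 1 without untreated replicate 2, to 4 without NaCl replicate 3, and to 6 without NaCl replicate 1 or spermidine+NaCl replicates 2 or 3. With untreated replicate 1 left out, limma thus called none of the members, although 88 had an unadjusted p below 0.05 with all libraries.

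The effect of spermidine differed with salt. The interaction, the change with spermidine under NaCl minus that without NaCl, uses all 4 groups. It was called positive in 75 of 320 members and negative in 4, where 4.18% and 6.68% of all tested unigenes were (10.9% in either direction). The 4 include minor L10a, L13 and P2 copies, tested only through groups where they are high. The calls of these copies carry no weight. Among the 161 abundant members 60 were called positive and 0 negative, where 13.2% and 11.5% of equally abundant rice hits were. The median interaction was 0.46 for the members and 0.16 for all unigenes, and the gap of 0.30 between them ran from 0.23 to 0.39 over 19 alternatives. Both subunits showed it, in 36 of 121 unigenes of 40S proteins and 37 of 174 of 60S proteins. Summed by protein, 39 of 77 families were called positive and 0 negative, against 10.8% of all features in either direction, and all but L40 (-0.24) were above 0. Of all tested unigenes, 61.7% were above 0. The count of 75 was 21 without NaCl replicate 1, 24 without NaCl replicate 3, 22 without spermidine replicate 1 or 3, 25 without untreated replicate 1, 24 without untreated replicate 3, 33, 24 and 30 without spermidine+NaCl replicates 1, 2 and 3, and 7 under median-ratio scaling.

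**Figure D4:**
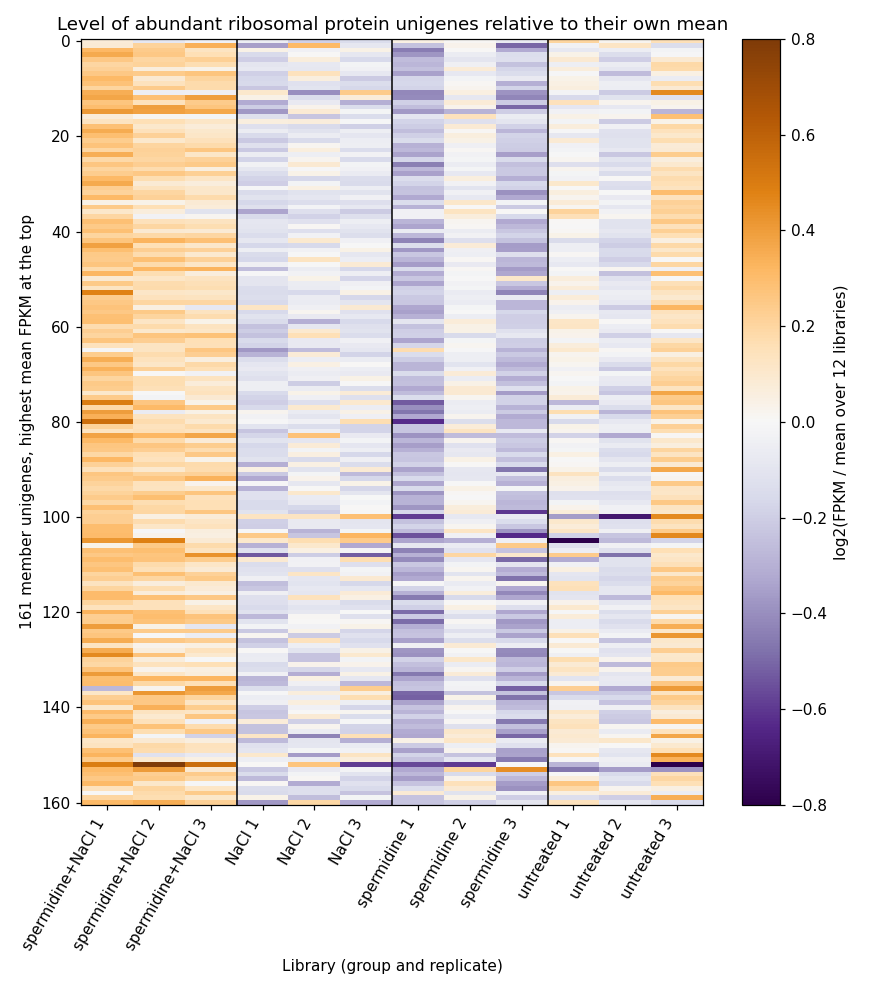
Level of each of 161 ribosomal protein unigenes that average 100 FPKM or more (rows, highest mean at the top) in each library (columns), as log2 of FPKM over its mean in 12 libraries. The 3 spermidine+NaCl columns are orange (high) over nearly all rows, spermidine replicates 1 and 3 are mostly purple (low), and untreated replicate 3 is mostly orange.

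The largest positive interactions among members with at least 5 FPKM in a group were the S9 copy named above (1.09, adjusted p = 0.00972, kept in all alternatives), the L5 copy Cluster-52034.71767 (0.94), S10 (Cluster-52034.78465, 0.74), S15a (Cluster-52034.80311, 0.66) and L18a (Cluster-52034.69853, 0.66). S10 is a 40S protein, and its unigene had 64.1, 51.1 and 55.1 FPKM in spermidine+NaCl, 48.2, 43.9 and 39.8 in NaCl, 40.9, 40.2 and 32.6 in spermidine, and 52.9, 41.1 and 55.4 in untreated roots. The L18a unigene had 747, 733 and 724 FPKM in spermidine+NaCl, 434, 596 and 556 in NaCl, 436, 458 and 489 in spermidine, and 551, 552 and 461 in untreated roots. In the L18a unigene every spermidine+NaCl library was above every other library, whereas in S10 the groups given both treatments and left untreated overlapped. Apart from S9, these calls were lost in 2 to 5 settings and in 7 to 11 of the 12 fits with a library left out, at adjusted p up to 0.0698 for L18a (without spermidine replicate 1), 0.0928 for S10 (without NaCl replicate 3) and 0.112 for S15a (without spermidine+NaCl replicate 2).

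Some minor unigenes were listed at 0 in whole groups. An S27 unigene (Cluster-52034.88998), for a zinc-binding 40S protein, had 4.47, 69.5 and 8.56 FPKM in spermidine+NaCl and 9.53, 14.3 and 7.28 in NaCl, and was listed at 0, 0 and 0.61 in spermidine and at 0 in all untreated roots. The more abundant S27 copy (Cluster-52034.74279) was called lower with salt, with 69.0, 78.6 and 71.3 FPKM in NaCl against 97.1, 79.1 and 93.3 in untreated roots (-0.29, adjusted p = 0.0460, lost in 4 settings and in 9 of 12 fits with a library left out, up to 0.156 without untreated replicate 1). Unigenes of L34 (Cluster-52034.36288) and L7 (Cluster-52034.73457) had 5.28, 8.70 and 4.40 and 3.12, 7.56 and 4.47 FPKM in NaCl roots and were listed at 0 in all spermidine and untreated libraries. In both, spermidine+NaCl replicate 2 stood far above its group, at 29.7 and 17.3 FPKM. That library also had 31245 FPKM in ribosomal protein unigenes without a rice hit, against 21225 and 20423 in replicates 1 and 3. Untreated replicate 1 had 34065 such FPKM, with both copies listed at 0. Any link was not tested. Of the 8 members called higher with salt, 6 were listed at 0 in all untreated libraries. The S27, L34 and L7 copies reached the limit for testing only through the salt-treated groups, where they are high, so they had to differ and no test is given for them.

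Other minor copies were highest in spermidine roots. An L13 unigene (Cluster-52034.26374), a 60S protein, had 2.49, 4.28 and 1.05 FPKM in spermidine+NaCl, was listed at 0 in all NaCl libraries, and had 14.0, 17.1 and 15.7 in spermidine and 0, 0 and 0.40 in untreated roots. An L10a unigene (Cluster-52034.17700) had 0.13, 2.88 and 0.32 FPKM in spermidine+NaCl, was listed at 0 in NaCl, and had 39.7, 18.9 and 36.4 in spermidine and 0, 0 and 2.13 in untreated roots. Both reached the limit for testing only through the spermidine group, where they are high, so no test is given for them. An L12 unigene (Cluster-52034.106459) had 0, 12.1 and 0 FPKM in spermidine+NaCl, was listed at 0 in NaCl, and had 106, 62.4 and 137 in spermidine and 0, 0 and 13.4 in untreated roots. Its call against untreated roots (adjusted p = 0.0371) was lost in 8 of 12 fits with a library left out, up to 0.151 without spermidine replicate 3, and in 5 settings. Of 2237 tested ribosomal protein unigenes without a rice hit, 262 were called higher and 10 lower with spermidine alone, where 2.05% and 0.509% of all tested unigenes were, while their summed FPKM in spermidine and untreated roots overlapped. Whether these minor copies are rice transcripts was not tested.

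**Figure D5:**
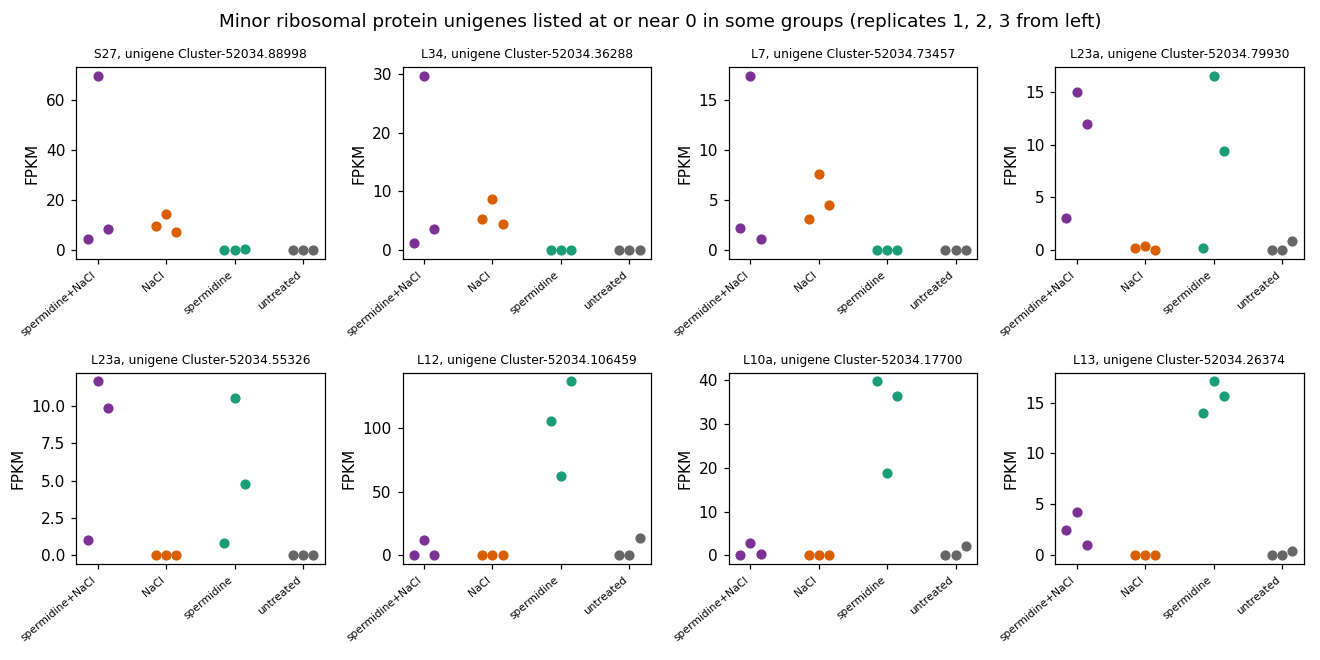
FPKM (y axis) of 8 minor ribosomal protein unigenes in the 12 libraries by group (x axis, replicates 1, 2 and 3 from left to right). S27, L34 and L7 copies are above 1 FPKM in the NaCl and spermidine+NaCl libraries and at or near 0 elsewhere, while the L12, L10a and L13 copies are highest in the spermidine libraries.

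The 10 tested L18a-like unigenes had a median change of 0.04 in spermidine+NaCl against NaCl roots, with 1 higher and 1 lower, where 8.63% and 7.18% of all tested unigenes were. In spermidine+NaCl against untreated roots their median was 0.13, with 8 of 10 above 0. Whether they differ from the other members was not tested. The one called lower (Cluster-52034.66782) had 24.3, 23.0 and 24.1 FPKM in spermidine+NaCl, 33.4, 34.0 and 34.0 in NaCl, 22.6, 20.1 and 18.2 in spermidine, and 20.7, 20.7 and 17.3 in untreated roots. NaCl libraries were above all others without overlap. It rose with salt (0.76 ± 0.10 SE, adjusted p = 0.000326) and was lower with spermidine under salt (-0.49 ± 0.10 SE, adjusted p = 0.00721), and both calls held in all 20 alternatives.

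Other parts of the translation machinery were described by word lists. In spermidine+NaCl against NaCl roots, 12 of 106 tested organelle ribosomal proteins were higher and 0 lower (median 0.20), as were 10 and 0 of 82 translation initiation factors (median 0.20), 4 and 0 of 41 elongation and release factors (0.21), 3 and 1 of 92 aminoacyl-tRNA synthetases (0.17) and 13 and 1 of 122 ribosome biogenesis factors (0.22). Beside 8.63% of all tested unigenes higher and 7.18% lower, the shares called higher were near the background or, for the synthetases, below it. These medians lay between those of all unigenes (0.14) and of the members (0.29). In NaCl against untreated roots the same lists had 0 higher and 13 lower, 0 and 7, 0 and 2, 2 and 3, and 1 and 11, where 10% of all tested unigenes were higher and 12.9% lower, so no list had a share called lower above the background. With spermidine alone limma called 1 organelle ribosomal protein lower and no other unigene of these lists, with 8, 3, 0, 3 and 10 unigenes at an unadjusted p below 0.05. The RNA polymerase I list (5 unigenes) and the whole-word list of TOR and S6 kinase (4 unigenes) had 0 calls in any of the 5 comparisons.

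Named factors, picked from the called unigenes, illustrate these lists. No alternative settings or fits with a library left out are given for them, so how firm their calls are cannot be said. Elongation factor 1-alpha, which delivers aminoacyl-tRNA to the ribosome (Cluster-52034.66456), had 702, 752 and 740 FPKM in spermidine+NaCl, 575, 627 and 607 in NaCl, 510, 618 and 553 in spermidine, and 579, 568 and 656 in untreated roots. It was higher with spermidine under NaCl, all 3 libraries lying above the other 9 (0.28 ± 0.08 SE, adjusted p = 0.0475). eIF5A-2, the factor modified with spermidine-derived hypusine (Cluster-52034.76865), had 397, 340 and 340 FPKM in spermidine+NaCl, 322, 309 and 301 in NaCl, 372, 401 and 393 in spermidine, and 395, 357 and 394 in untreated roots. Its NaCl libraries were the lowest of all groups, with a fall against untreated roots of 0.29 ± 0.08 SE (adjusted p = 0.0182). A unigene described as nucleolar protein 58, part of the machinery that modifies ribosomal RNA (Cluster-52034.79350), ran against its list, with 11.9, 7.91 and 9.68 FPKM in spermidine+NaCl, 49.5, 30.1 and 35.6 in NaCl, 8.04, 7.16 and 5.68 in spermidine, and 3.88, 6.40 and 9.12 in untreated roots. It rose with salt (2.43 ± 0.27 SE, adjusted p = 0.000144) and was lower with spermidine under salt (-1.85 ± 0.27 SE, adjusted p = 0.00129).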

How the data were processed

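Poly-A RNA of rice roots was sequenced in 12 libraries. The authors deposited a table of FPKM per unigene with protein annotations, and CASAVA 1.8, Bowtie2 and RSEM were used per the submitters' processing notes, which give no roles for them. No account of the assembly, the build or any filter was given in the sources used here.

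Members were unigenes with an Oryza NR hit whose NR or Swissprot description named a 40S, 60S or 60S acidic ribosomal protein. Members, pathway lists, naming rules and tests were chosen with earlier results of these data known. Values were tested as log2(FPKM + 1), a scale that understates the change of low unigenes, for unigenes averaging 1 FPKM or more. Group means were fitted to all libraries with limma 3.58.1 (R 4.3.3), using moderated variances with a mean trend. P-values are two-sided and were adjusted by Benjamini-Hochberg over every tested unigene of a comparison, and an adjusted p below 0.05 was called. Family sums replaced their unigenes in a second fit. Errors are SE for log2 changes. FPKM keeps no counts, so total depth and counting error are unknown. Scripts were tested on simulated data.

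The naming rule took the 6 most abundant members, the 5 largest called rises and falls per comparison with at least 5 FPKM in a group, stalk, S6 and ubiquitin-fusion members averaging 20 FPKM, copies called in opposite directions, and 1 called unigene per list, direction and comparison for NaCl against untreated and spermidine+NaCl against NaCl roots. The families named, and the members picked from those the rule gave, were chosen after their values were seen. The words of the TOR list also matched other complexes, so a whole-word list was added after seeing the data. There were 8 alternative settings and 12 fits without a library. No sequences were used here.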

Additional observations from a re-analysis of the deposited data

Results flagged for a closer look

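The interaction of spermidine and salt was called by limma in 14 of the named members. The naming rule took the largest called interactions, so this number cannot be set against the 10.9% of all tested unigenes called. On the log2 scale, the interaction subtracts the change with spermidine in salt-free roots from that in salt-treated roots. It was positive for S9 (Cluster-52034.81361, 1.09, adjusted p = 0.00972), an L5 copy (Cluster-52034.71767, 0.94, 0.0451), S10 (Cluster-52034.78465, 0.74, 0.0392), S15a (Cluster-52034.80311, 0.66, 0.0499), L18a (Cluster-52034.69853, 0.66, 0.0284) and the unigene described as ribosomal L1 domain-containing protein 1 (Cluster-52034.66060, 0.63, 0.0342). It was also positive for S27a (Cluster-52034.75406, 0.52, 0.0242), L32 (Cluster-52034.77066, 0.49, 0.0388), P3 (Cluster-52034.75729, 0.48, 0.0495), P0 (Cluster-52034.71064, 0.47, 0.0424) and L19 (Cluster-52034.67512, 0.47, 0.0281). It was negative for an L18a-like protein (Cluster-52034.66782, -0.54, 0.0330). The S9 call was kept in all 12 fits with 1 library left out. The other 10 with such fits were lost in 6 (S27a) to 11 (S15a) of them, at adjusted p up to 0.0635 for S27a and 0.118 for P3, both without NaCl replicate 1, and in 1 to 5 settings each. The L1 domain-containing protein's interaction had no such fits. The interaction was also negative for minor copies of L10a (Cluster-52034.17700, -3.57) and L13 (Cluster-52034.26374, -2.14), both listed at 0 in NaCl roots. They were tested only because of their level in spermidine roots, so their calls carry no weight. The size depends on the added 1 FPKM, and with 0.1 added neither was called.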

How the results depend on the processing

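Counts of calls depended on the scaling and on single libraries more than the directions of called results did. Among 113 named results and comparisons, 1 reversed in an alternative, L35 (Cluster-52034.62989) in NaCl against untreated roots, at 0.038 with quantile normalization. A reversal was counted only where the main fit or the alternative called the result. Changes of sign in results called in neither were not counted. Of the 45 named calls, 10 were kept in every alternative, 3 of them in copies (S27, L10a and L13) that were tested only through the groups where they are high. Below, counts in NaCl against untreated roots are members higher (8) or lower (23) and families (5), and those in spermidine+NaCl against NaCl roots are members higher (71) or lower (2) and families (33). The counts in spermidine against untreated roots (5), spermidine+NaCl against untreated roots (10) and the interaction (79) are members in either direction. Only counts over 1.5 times apart are given for a setting. The share of all unigenes called is not given for the alternatives, so these counts are not read against a background.

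With a limit of 5 FPKM on the mean, 3 members were higher in NaCl against untreated roots, 1 lower in spermidine+NaCl against NaCl and 1 called in spermidine against untreated. Median-ratio scaling gave 10 members lower and 2 families for NaCl, 9 members higher and 3 families for spermidine+NaCl against NaCl, and 11 for the interaction. Without a filter these were 12, 2, 29, 14 and 29, and 5 were called in spermidine+NaCl against untreated. Fitting the compared groups alone gave 10 lower and 1 family for NaCl, 2 for spermidine and 4 for spermidine+NaCl against untreated. A pseudocount of 0.1 gave 20 for spermidine+NaCl against untreated, 3 families for NaCl and 20 for spermidine+NaCl against NaCl. Quantile normalization gave 92 lower and 30 families for NaCl, 148 higher for spermidine+NaCl against NaCl, 5 for spermidine+NaCl against untreated and 133 for the interaction. Rice hits alone gave 77 and 23 for NaCl, 173 and 67 for spermidine+NaCl against NaCl, 2 for spermidine, 6 for spermidine+NaCl against untreated and 150 for the interaction. The cause was not tested.

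With the replicate block, 13 members were lower for NaCl, 3 were called for spermidine, 36 for the interaction, and 18 families and 49 members higher for spermidine+NaCl against NaCl. Deviations of same-numbered libraries from their group means correlated at -0.11 to 0.15 over 18 pairs, 2 of them over 0.1. The other 36 pairs ran from -0.10 to 0.10. With 3 libraries in a group, such correlations cannot tell whether the numbers pair the samples.

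Leaving out 1 library gave 4 to 9 members higher and 5 to 24 lower for NaCl, 10 to 90 higher and 1 to 3 lower for spermidine+NaCl against NaCl, 2 to 8 for spermidine, 0 to 13 for spermidine+NaCl against untreated and 23 to 115 for the interaction. Families numbered 1 to 8 for NaCl and 5 to 43 for spermidine+NaCl against NaCl. Fitting only the groups compared gives no other value for the interaction, which uses all 4. Without counts, the counting error of low unigenes is unknown.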
